A study of Mus musculus with 6 samples.

Results

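Of the 8 genes described here, *Slc2a2*, *G6pc2*, *Abcc8*, *Kcnj11*, *Slc30a8*, *Pcsk1* and *Pcsk2* take part in glucose sensing and insulin processing in the beta cell. *Ucn3* encodes a secreted peptide of that cell. The 8 genes were taken from a list of names and matched by Ensembl identifier to the count table, in which all 8 were found among 37224 listed genes. The values come from RNA Seq of wild-type (wt) pancreata of C57/Bl6J mouse embryos at 13.5 and 15.5 days post coitum (dpc), with 3 samples per stage and no treatment. Each sample was a pool of pancreata of up to 3 embryos, so that differences between single embryos are not seen. The samples of each stage are described as independent, and the p-values below measure the spread between these pools.

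A mature beta cell takes up glucose through the transporter Glut2, phosphorylates it and burns it, and the resulting adenosine triphosphate (ATP) closes the ATP-sensitive potassium (KATP) channel. Closure depolarises the membrane, calcium enters, and granules with insulin are released. Insulin is made as proinsulin, which convertases cut inside the granule, where zinc packs the product into crystals. In the mouse pancreas these stages lie in the secondary transition, when endocrine and acinar cells are formed from the epithelium in large numbers, and many genes of the mature beta cell are known to be switched on only later.

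Total counts were 12895732 to 16389237 per sample at 13.5 dpc and 10546028 to 12491550 at 15.5 dpc. Of all genes, 15578 passed a filter on low counts, and 3467 of them (22.3%) differed between the stages by edgeR's quasi-likelihood test at a Benjamini-Hochberg adjusted p of 0.05, with 1805 (11.6%) higher and 1662 (10.7%) lower at 15.5 dpc. Scaling by library size only moved this balance to 1133 higher and 2952 lower. The median log2 fold change over the genes tested was -0.01. Replicates 1 and 2 of 15.5 dpc stood apart. In replicate 1 the deviation of genes from the stage mean ran against exon length (Spearman rho = -0.567 over 15578 genes, as a description) and in replicate 2 it ran with it (0.583). The genes of the acinar list were counted in all samples, and 9 of 9 were higher at 15.5 dpc. Their summed level, led by *Ctrb1* and *Pnliprp1*, was 97680 to 117300 normalised counts at 13.5 dpc and 621600 to 1322000 at 15.5 dpc. The part of this list in the differences below was not tested.

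Of the 8 genes, 7 passed the filter, and 4 of these rose, against the 11.6% of all tested genes that rose. The 4 were *Slc30a8*, the zinc transporter of the insulin granule (2.82-fold), *G6pc2*, the islet glucose-6-phosphatase (2.47-fold), and the prohormone convertases *Pcsk1* and *Pcsk2* (log2 fold changes 0.54 and 0.49). None fell. *Abcc8* (adjusted p = 0.0607), *Slc2a2* (0.496) and *Kcnj11* (0.469) did not pass edgeR's test, although their estimates were also above 0. *Ucn3*, a peptide of the mature beta cell, had 3 to 5 counts in every sample and was not tested. The values of the 15.5 dpc samples lay above all 13.5 dpc samples for 5 of the 7 tested genes, a pattern that 22.8% of all tested genes had (46.4% did not overlap in either direction). With the thresholds of the study, an adjusted p of 0.1, over 100 normalised counts and a fold below 0.6 or above 1.6, *G6pc2* and *Slc30a8* were higher, against 6.35% of all tested genes (9.98% in either direction). In whole tissue, more cells that express a gene and more RNA per cell cannot be told apart.

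The count of 4 was 1 when 13.5 dpc replicate 1, 13.5 dpc replicate 2 or 15.5 dpc replicate 3 was left out, and 5 without 15.5 dpc replicate 1. It was 2 when counts were scaled by library size only, a scaling under which the median gene was at -0.22.

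**Figure D1:**
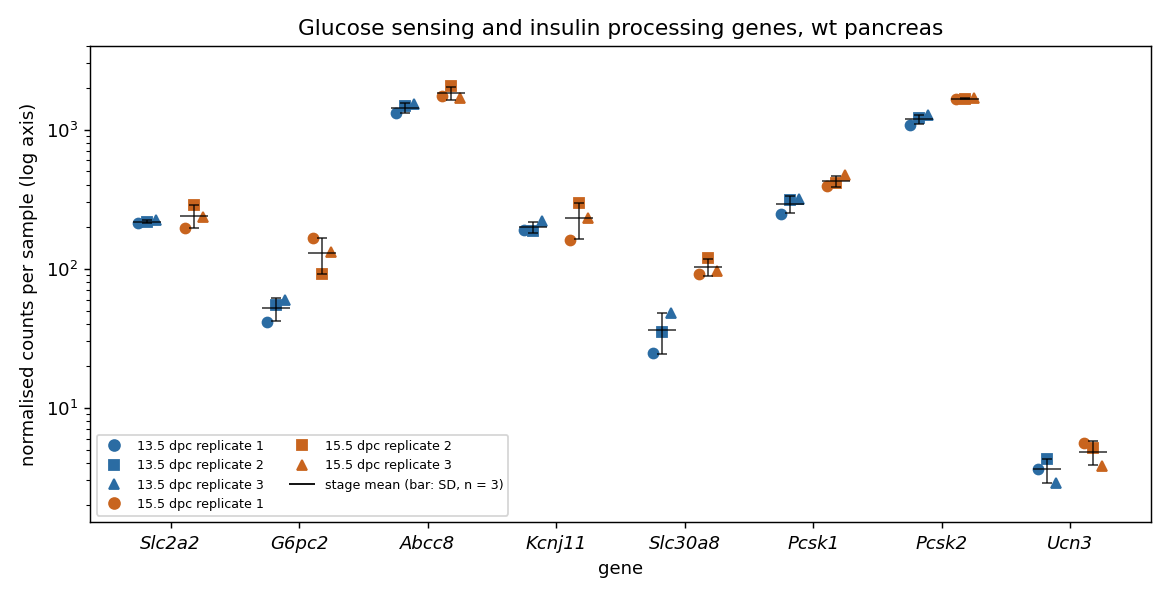
Normalised counts (log axis) of the 8 genes in each sample, with circles, squares and triangles for replicates 1, 2 and 3, blue for 13.5 dpc and orange for 15.5 dpc, and black bars for the stage mean and SD (n = 3). *G6pc2*, *Abcc8*, *Slc30a8*, *Pcsk1* and *Pcsk2* show separate stages, *Slc2a2* and *Kcnj11* show overlapping ones, and *Ucn3* lies under 6 normalised counts in all samples.

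RefSeq promoter windows of the GRCm38.p6 assembly, from 250 bases before to 50 bases after the transcript start, were at hand for 5 of the 8 genes. The windows of the 3 genes that rose and had one, and of *Slc2a2*, which did not pass the test, are shown so that their base composition can be compared beside the counts. Capitals mark matches on either strand to any of 6 motifs chosen with the sequences in view, each given here with the share of all 32851 promoter windows that hold it on either strand. The homeobox core is TAATTA (in 5.29% of windows), and the E-box of bHLH factors is CAGATG (17.2%). The Maf core was searched as TGCTGA (19.5%), and the core of the cyclic AMP response element as TGACGT (7.51%). Forkhead factors were represented by TGTTTA (13.4%), and the TATA box by TATAAA (13.6%). Each window reads 5′ to 3′ on the strand of the gene.
G6pc2: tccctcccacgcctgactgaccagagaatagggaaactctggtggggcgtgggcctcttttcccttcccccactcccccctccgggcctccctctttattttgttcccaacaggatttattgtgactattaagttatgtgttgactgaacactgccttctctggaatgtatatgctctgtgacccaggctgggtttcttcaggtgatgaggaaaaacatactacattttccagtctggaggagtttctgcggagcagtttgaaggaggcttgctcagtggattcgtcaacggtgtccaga
Pcsk1: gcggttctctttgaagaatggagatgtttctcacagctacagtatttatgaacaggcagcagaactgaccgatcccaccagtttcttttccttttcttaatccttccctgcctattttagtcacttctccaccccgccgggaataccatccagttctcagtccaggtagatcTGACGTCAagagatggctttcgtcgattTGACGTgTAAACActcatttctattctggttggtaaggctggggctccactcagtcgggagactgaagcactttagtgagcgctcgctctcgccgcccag
Pcsk2: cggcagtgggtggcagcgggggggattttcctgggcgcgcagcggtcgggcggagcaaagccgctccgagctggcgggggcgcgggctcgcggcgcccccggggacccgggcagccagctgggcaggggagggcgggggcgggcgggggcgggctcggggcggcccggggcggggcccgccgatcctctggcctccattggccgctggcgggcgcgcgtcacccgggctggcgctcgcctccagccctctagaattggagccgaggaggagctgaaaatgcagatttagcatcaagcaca
Slc2a2: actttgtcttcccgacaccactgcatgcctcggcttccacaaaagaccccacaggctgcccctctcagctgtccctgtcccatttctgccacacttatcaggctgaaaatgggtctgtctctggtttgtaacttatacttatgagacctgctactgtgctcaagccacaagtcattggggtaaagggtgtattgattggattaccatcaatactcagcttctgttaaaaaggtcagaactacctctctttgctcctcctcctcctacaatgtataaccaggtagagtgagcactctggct

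The windows are chr2:69210823-69211122 (plus strand) for *G6pc2*, chr13:75089607-75089906 (plus) for *Pcsk1*, chr2:143545883-143546182 (plus) for *Pcsk2* and chr3:28697653-28697952 (plus) for *Slc2a2*. Among these 4 windows only that of *Pcsk1* held any of the 6 motifs, and a further start of *G6pc2* is given below. Its matches to the cyclic AMP response core begin at -78, -76 (reverse strand) and -50 from the transcript start, and the first pair overlap in the palindrome TGACGTCA. A reverse-strand match to the forkhead core begins at -43. Base composition set *Pcsk2* apart, with 76.3% G and C and 36 CpG dinucleotides, whereas *G6pc2*, *Pcsk1* and *Slc2a2* had 50.7%, 49.3% and 48% with 6, 13 and 2 CpG. The median window of all promoters had 52.7% and 7 CpG. RefSeq also lists a later start of *G6pc2*, with the window chr2:69219699-69219998 (plus), which lies away from the start of the deposited exon model. That window held the E-box letters at -78 and -34 and reverse-strand matches to the Maf core at -121 and -27. Which start of *G6pc2* is used in these samples was not tested. The window of *Ucn3*, chr13:3945300-3945599 (minus), held the E-box letters at -87. A match or its absence describes these letters only.

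Glucose entry and the first step of its metabolism were represented by *Slc2a2* and *G6pc2*. *Slc2a2* (ENSMUSG00000027690, chr3:28697903-28728356, plus strand) encodes Glut2, the low-affinity transporter of rodent beta cells and liver. In replicates 1, 2 and 3 it had 213, 216 and 224 normalised counts at 13.5 dpc and 197, 287 and 237 at 15.5 dpc. The 15.5 dpc samples lay on both sides of the tight 13.5 dpc values. The means were 218 ± 5.65 and 240.2 ± 45.5 (SD, n = 3), and the log2 fold change was 0.15 ± 0.151 (SE, 95% confidence interval -0.21 to 0.50). As a fold this is 1.11, with an interval of 0.866 to 1.41, and the difference did not pass edgeR's test (adjusted p = 0.496). The log2 fold change was 0.0077 (adjusted p = 0.965) without 15.5 dpc replicate 2 and 0.27 (0.12) without 15.5 dpc replicate 1. Since liver uses the same transporter, the liver list was looked at beside it. It summed to 1196 to 1826 normalised counts at 13.5 dpc and 758 to 1114 at 15.5 dpc, with 3 of 6 tested genes lower, none higher and none of its genes at 0 in all samples. Its part in the level of *Slc2a2* was not tested.

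*G6pc2* (ENSMUSG00000005232, chr2:69211073-69227841, plus strand) encodes the islet glucose-6-phosphatase, which reverses the first step of glucose use and is known to set the glucose threshold of insulin release. It had 41.0, 54.9 and 59.6 normalised counts at 13.5 dpc and 166, 91.0 and 132 at 15.5 dpc. All 15.5 dpc samples exceeded all 13.5 dpc samples, and replicate 2 was the lowest of the later stage. The mean rose from 51.8 ± 9.67 to 130 ± 37.6 (SD, n = 3), a log2 fold change of 1.30 ± 0.255 (SE, 95% confidence interval 0.71 to 1.90, adjusted p = 0.0124, edgeR). The call was lost, with log2 fold changes of 1.17, 1.34 and 1.29, without 13.5 dpc replicate 1 (adjusted p = 0.0599), 13.5 dpc replicate 2 (0.0533) or 15.5 dpc replicate 3 (0.0525).

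Among 6 other glucose transporters, 2 fell and none rose (33.3%, against 22.3% of all tested genes that differed), with a median log2 fold change of -0.34 (3 fell with library size only, median -0.55). *Slc2a3*, the high-affinity transporter of neurons and other tissues, fell by 0.89 ± 0.132 on the log2 scale (SE, adjusted p = 0.0044, edgeR), and *Slc2a4*, the insulin-responsive transporter of muscle and fat, fell by 0.86 ± 0.161 (adjusted p = 0.0106). *Slc2a1*, the widely expressed transporter, was measured at 1094 ± 53.4 and 1249 ± 79.4 normalised counts (log2 fold change 0.19, adjusted p = 0.17). Per kilobase, *Slc2a2* was at 0.207 ± 0.0106 of *Slc2a1* at 13.5 dpc and 0.201 ± 0.0491 at 15.5 dpc, a ratio chosen after values were seen (exact permutation p = 0.8). Of 7 tested hexokinase and glucose-6-phosphatase genes, 2 rose and none fell (28.6%), with a median of 0.17. With library size only 1 rose (median -0.05), since *G6pc3* lost its call (0.35, adjusted p = 0.0688). The 2 were *Hkdc1*, which encodes a hexokinase domain protein (1.23 ± 0.108, adjusted p = 0.000803), and *G6pc3*, the widely expressed phosphatase (0.57 ± 0.154, adjusted p = 0.0363). *G6pc3* passed in 8 of 10 alternative settings with all samples and in 2 of the 6 fits that left a sample out (highest adjusted p = 0.132, edgeR). Liver-type *G6pc*, with 4 and 8 counts summed over the 3 samples of each stage, was too low to test.

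The KATP channel is built from the pore subunit Kir6.2, encoded by *Kcnj11*, and the sulfonylurea receptor Sur1, encoded by *Abcc8*, which lie next to each other on chromosome 7. *Abcc8* (ENSMUSG00000040136, chr7:46104523-46180033, minus strand) had 1311, 1475 and 1526 normalised counts at 13.5 dpc and 1755, 2071 and 1691 at 15.5 dpc. The stages were separate, with a gap smaller than the range within 15.5 dpc. The mean went from 1437 ± 112 to 1839 ± 203 (SD, n = 3), and the log2 fold change of 0.36 ± 0.113 (SE, 95% confidence interval 0.09 to 0.62) fell short of the threshold in edgeR's test (adjusted p = 0.0607). It passed at 0.39 without 15.5 dpc replicate 1 (adjusted p = 0.0268) and at 0.27 without 15.5 dpc replicate 2 (0.0452), and with DESeq2 (0.37, adjusted p = 0.0242). It did not pass when any of the other samples was left out (adjusted p = 0.112 to 0.215), and with library size only the log2 fold change was 0.15 (adjusted p = 0.434).

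*Kcnj11* (ENSMUSG00000096146, chr7:46098725-46099897, minus strand) had 190, 186 and 220 normalised counts at 13.5 dpc and 162, 297 and 232 at 15.5 dpc. Replicate 1 of the later stage was the lowest and replicate 2 the highest of all 6 samples, so the stages overlapped fully. The means were 198 ± 18.6 and 230 ± 67.3 (SD, n = 3), with a log2 fold change of 0.22 ± 0.213 (SE, 95% confidence interval -0.28 to 0.72, adjusted p = 0.469, edgeR). Leaving out 15.5 dpc replicate 2 gave 0.0038 (adjusted p = 0.986), and leaving out 15.5 dpc replicate 1 gave 0.42 (0.0541). Its exon model in the table is 1173 bases long, a multiple of 3 and 31.9% of the length in the later GENCODE M21 annotation, so that reads from the rest of its transcript were not counted.

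Within samples the log2 ratio of *Abcc8* to *Kcnj11* was 2.79, 2.98 and 2.79 at 13.5 dpc and 3.43, 2.80 and 2.86 at 15.5 dpc. 15.5 dpc replicate 1 stood off, and the stages overlapped (difference 0.18, exact permutation p = 0.5). The paralogs *Kcnj8* and *Abcc9*, known from the KATP channel of vascular smooth muscle, had negative estimates. *Kcnj8*, which encodes Kir6.1, fell by 0.53 ± 0.106 on the log2 scale (SE, adjusted p = 0.0131, edgeR), and *Abcc9*, which encodes Sur2, went from 907 ± 79.3 to 562 ± 222 normalised counts without passing (log2 fold change -0.69, adjusted p = 0.093). With the exon-length trend removed, both passed as lower. Per kilobase, *Abcc8* was at 2.42 ± 0.155 times the level of *Abcc9* at 13.5 dpc and 5.39 ± 1.69 times at 15.5 dpc, with all 15.5 dpc samples above (exact permutation p = 0.1, a ratio chosen after values were seen). *Kcnj11* was at 0.417 ± 0.0643 and 0.708 ± 0.262 of *Kcnj8*, with overlapping stages (exact permutation p = 0.2). Of the 8 genes of the pancreas mesenchyme list, 3 were lower and none higher at 15.5 dpc. Their sum was 120200 to 135900 normalised counts at 13.5 dpc and 86360 to 129600 at 15.5 dpc, lowest in 15.5 dpc replicate 1, and none was at 0 in all samples. The part of this list in the levels of *Kcnj8* and *Abcc9* was not tested.

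*Slc30a8* (ENSMUSG00000022315, chr15:52295553-52335798, plus strand) encodes ZnT8, which loads zinc into the insulin granule. It had 24.6, 35.2 and 48.1 normalised counts at 13.5 dpc, and 91.3, 119 and 97.0 at 15.5 dpc. All later samples lay above all earlier ones, with a wide gap. The mean rose from 36.0 ± 11.8 to 102 ± 14.4 (SD, n = 3), with a log2 fold change of 1.49 ± 0.249 (SE, 95% confidence interval 0.91 to 2.08, adjusted p = 0.00672, edgeR). This was the only gene of the 8 that kept its call under every alternative tried, including each sample left out in turn (1.29 to 1.77, adjusted p at most 0.041). The values rest on 135 counts at 13.5 dpc and 259 at 15.5 dpc, summed over 3 samples each.

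Of 7 tested relatives of *Slc30a8*, 2 rose and none fell (28.6%, against 22.3% of all tested genes that differed), with a median of 0.23. *Slc30a5* and *Slc30a7*, whose products carry zinc into the early secretory pathway, rose by 0.52 ± 0.0823 (SE, adjusted p = 0.00567, edgeR) and 0.51 ± 0.104 (adjusted p = 0.0145) on the log2 scale. With library size only, none of the 7 rose and 1 fell (median 0.0092), and with the exon-length trend removed 4 rose and none fell (median 0.49). The rise of *Slc30a8* was close to that of *Mafa*, a transcription factor of maturing beta cells (1.52 ± 0.175, adjusted p = 0.00173). Their log2 ratio within samples was -0.13 ± 0.308 at 13.5 dpc and -0.13 ± 0.191 at 15.5 dpc (SD, n = 3, exact permutation p = 1, chosen after values were seen). For *G6pc2* to *Mafa* it was 0.43 ± 0.248 and 0.18 ± 0.441 (exact permutation p = 0.5).

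Proinsulin is cut by PC1/3 and PC2, the products of *Pcsk1* and *Pcsk2*. Alpha cells and neurons use PC2 as well. *Pcsk1* (ENSMUSG00000021587, chr13:75089826-75132498, plus strand) had 246, 310 and 319 normalised counts at 13.5 dpc and 390, 413 and 468 at 15.5 dpc, without overlap. The mean rose from 291 ± 39.7 to 424 ± 40.2 (SD, n = 3), with a log2 fold change of 0.54 ± 0.136 (SE, 95% confidence interval 0.22 to 0.86, adjusted p = 0.0297, edgeR). The call was lost without 13.5 dpc replicate 1 (0.43, adjusted p = 0.112), replicate 2 (0.58, 0.0887) or replicate 3 (0.61, 0.0737), and without 15.5 dpc replicate 3 (0.46, 0.122). Scaling by library size alone gave 0.33 (0.15).

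*Pcsk2* (ENSMUSG00000027419, chr2:143546156-143816285, plus strand) had 1083, 1218 and 1265 normalised counts at 13.5 dpc and 1673, 1653 and 1675 at 15.5 dpc. The 15.5 dpc values were nearly equal, with a coefficient of variation of 0.744%, and all lay above 13.5 dpc. The mean rose from 1189 ± 94.8 to 1667 ± 12.4 (SD, n = 3), with a log2 fold change of 0.49 ± 0.0923 (SE, 95% confidence interval 0.27 to 0.70, adjusted p = 0.011, edgeR). The call was lost, at 0.42, 0.50 and 0.48, without 13.5 dpc replicate 1 (adjusted p = 0.0712), 13.5 dpc replicate 2 (0.0591) or 15.5 dpc replicate 3 (0.0612). Scaling by library size alone gave 0.27 (0.0933). Antisense genes overlap 359 of its 7910 exon bases on the opposite strand, and they had 1 to 18 counts per sample.

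The proportion of the convertases to each other overlapped between the stages. Per kilobase of exon, *Pcsk1* was at 0.597 ± 0.0365 of *Pcsk2* at 13.5 dpc and 0.621 ± 0.0574 at 15.5 dpc (SD, n = 3), and the log2 ratio of counts differed by 0.05 (exact permutation p = 0.6). Of the 7 other proprotein convertases tested, 2 fell and none rose (28.6%, against 22.3% of all tested genes that differed), with a median of -0.11. With the exon-length trend removed, 3 fell and 1 rose (median 0.014). *Pcsk5*, a convertase of the secretory pathway in many tissues, fell by 0.59 ± 0.172 on the log2 scale (SE, adjusted p = 0.047, edgeR). Its call held in 2 of the 6 fits that left a sample out (highest adjusted p = 0.162). *Furin* was measured at 1767 ± 105 and 1639 ± 165 normalised counts (adjusted p = 0.472).

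Of the 7 partners and later enzymes of processing, 3 rose and none fell (42.9%, against 22.3% of all tested genes that differed). Their median was 0.46 (0.22 with library size only and 0.31 with the exon-length trend removed, with the same counts). *Cpe*, the carboxypeptidase that trims the basic residues left by the convertases, rose by 0.79 ± 0.135 on the log2 scale (SE, adjusted p = 0.00723, edgeR) and had 4616 to 6437 normalised counts at 15.5 dpc. *Qpct*, which cyclises N-terminal glutamine, rose by 0.91 ± 0.199 (adjusted p = 0.0184), and *Ctsl*, a lysosomal protease also proposed for prohormones, by 1.30 ± 0.213 (adjusted p = 0.00632). The direct partners were *Pcsk1n*, which encodes the PC1/3 inhibitor proSAAS (0.46 ± 0.247, adjusted p = 0.204), and *Scg5*, which encodes the PC2 chaperone 7B2 (0.42 ± 0.188, adjusted p = 0.139), and neither passed. *Pcsk1n* ranged from 568 to 1172 normalised counts within 15.5 dpc.

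*Ucn3* (ENSMUSG00000044988, chr13:3940688-3945349, minus strand) encodes urocortin 3, a late marker of beta cell maturity in the mouse that signals through the receptor Crhr2 on delta cells. It had raw counts of 4, 5 and 4 at 13.5 dpc and 4, 5 and 3 at 15.5 dpc. All samples sat at or just above the floor of 3 counts. The sums of 13 and 12 counts gave a rate ratio of 1.35, with an exact 95% interval of 0.564 to 3.22 that covers counting error only. A change between the stages was not detectable at this depth. *Crhr2* had 15.8 to 23.1 normalised counts at 13.5 dpc and 30.7 to 34.6 at 15.5 dpc and rose by 0.73 ± 0.217 on the log2 scale (SE, adjusted p = 0.0489, edgeR). It passed in 4 of 10 alternative settings with all samples (highest adjusted p = 0.109) and in 1 of the 6 fits that left a sample out (highest adjusted p = 0.167). *Crhr2* was the only tested gene of the 6 other ligands and receptors of this family.

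**Figure D2:**
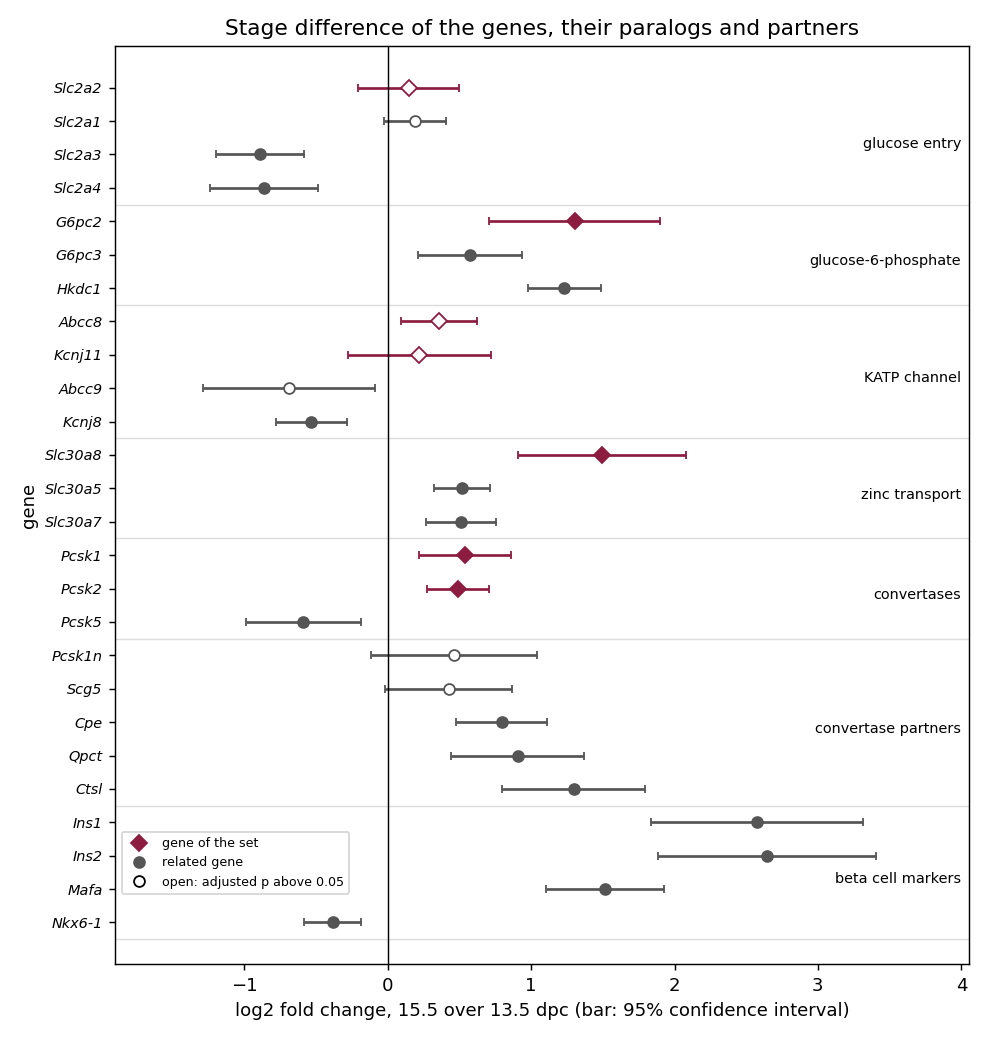
Log2 fold change of 15.5 over 13.5 dpc (horizontal axis) with its 95% confidence interval for the 7 tested genes (red diamonds) and for related genes (grey circles), grouped by role, where open symbols have an adjusted p above 0.05 in edgeR's test. *Slc30a8* (1.49) and *G6pc2* (1.30) lie with *Mafa* (1.52), under *Ins1* (2.57) and *Ins2* (2.64), while *Slc2a3*, *Slc2a4*, *Kcnj8* and *Pcsk5* lie below 0.

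The steps between glucose and secretion were described with further lists, to be read against the 22.3% of all tested genes that differed and their median of -0.01. Of 10 glycolytic and mitochondrial genes, 5 rose and 1 fell, with a median of 0.28 (3 and 2 with library size only, median 0.064). *Pcx*, the anaplerotic pyruvate carboxylase, rose by 1.18 ± 0.103 on the log2 scale (SE, adjusted p = 0.000786, edgeR), and the glycolytic genes *Pfkp* and *Tpi1* rose by 0.79 ± 0.121 (adjusted p = 0.00482) and 0.57 ± 0.13 (0.0215). *Pfkm*, the muscle-type phosphofructokinase, fell by 0.50 ± 0.0849 (adjusted p = 0.00698).

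Of 15 channels and pumps of excitability and calcium entry, 1 rose and 3 fell, with a median of -0.38. With library size only 1 rose and 5 fell (median -0.58), and with the exon-length trend removed 2 rose and 4 fell (median -0.17). The potassium channel gene *Kcnq1* rose by 1.37 ± 0.12 on the log2 scale (SE, adjusted p = 0.000803, edgeR). The calcium channel genes *Cacna1c* and *Cacna2d1* fell by 1.19 ± 0.349 (adjusted p = 0.0477) and 0.92 ± 0.235 (0.0304), and *Trpm5*, a calcium-activated cation channel, by 0.77 ± 0.101 (0.00281). Both calcium channel genes were lowest in 15.5 dpc replicate 1, with 45.7 and 162 normalised counts. Among 10 receptors and signal genes none rose and 2 fell, the adenylate cyclases *Adcy5* (-1.07 ± 0.176, adjusted p = 0.0064) and *Adcy8* (-2.01 ± 0.393, adjusted p = 0.0124).

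Of 15 genes of granule cargo and membrane, 5 rose and 2 fell, with a median of 0.22 (5 and 3 with library size only, median 0.02). Insulin genes led, with 2.64 ± 0.326 for *Ins2* (SE, adjusted p = 0.00221, edgeR) and 2.57 ± 0.316 for *Ins1* (0.0022). The exocytosis genes *Sytl4* and *Rab27a* rose by 0.96 ± 0.107 (adjusted p = 0.00153) and 0.82 ± 0.0929 (0.00164). Of 18 transcription factors of the beta cell, 4 rose and 4 fell, with a median of -0.21. The split was 2 higher and 7 lower with library size only (median -0.42), and 7 higher and 6 lower with the exon-length trend removed. Beside *Mafa*, *Hnf4a* rose by 0.53 ± 0.123 (adjusted p = 0.0225), while *Nkx6-1*, which also marks trunk progenitors at these stages, fell by 0.39 ± 0.0835 (0.0178). *Hnf4a* and *Nkx6-1* each passed in 2 of the 6 fits that left a sample out (highest adjusted p = 0.103 and 0.093).

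Of the 31 related genes that the rule picked for passing the test, 15 passed in every fit that left a sample out. The number that passed was 17 without 13.5 dpc replicate 1, 18 without replicate 2 and 20 without replicate 3. It was 30 without 15.5 dpc replicate 1, 31 without replicate 2 and 20 without replicate 3. No direction changed.

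**Figure D3:**
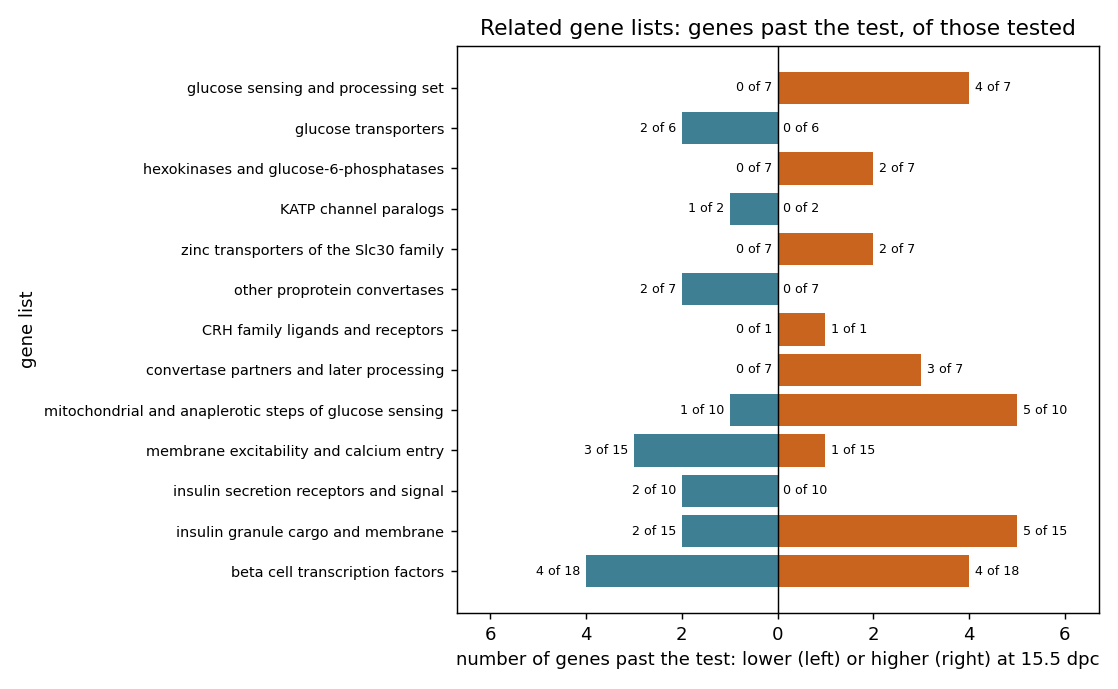
Number of genes lower (left, teal) or higher (right, orange) at 15.5 dpc by edgeR's test in the set of 8 genes and in 12 related lists, with the number tested beside each bar. The set and the mitochondrial, granule, partner, zinc transporter, hexokinase and CRH family lists have more genes higher than lower. The glucose transporter, KATP paralog, other convertase, excitability and insulin secretion receptor lists have more genes lower, and the transcription factor list is even. Of all tested genes, 11.6% were higher and 10.7% lower. The other convertase, excitability and insulin secretion receptor lists, with 28.6%, 26.7% and 20% called, lie near the 22.3% of all tested genes.

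Counts of *Ins2* rose more than those of any of the 8 genes, from 1188, 1625 and 1670 normalised counts at 13.5 dpc to 13823, 5667 and 8524 at 15.5 dpc. Relative to *Ins2* in the same sample, all 7 tested genes were lower at 15.5 dpc, without overlap between the stages. So were 98.6% of all tested genes, with a median difference of -2.59, so that the pattern is not particular to these genes. The difference of the log2 ratio was -2.44 for *Slc2a2*, -2.39 for *Kcnj11*, -2.21 for *Abcc8*, -2.07 for *Pcsk2*, -2.02 for *Pcsk1*, -1.27 for *G6pc2* and -1.02 for *Slc30a8*. Each had an exact permutation p of 0.1, the smallest possible with 3 against 3, and 0.164 after Benjamini-Hochberg adjustment over 23 ratios. The separation was narrow for *Slc30a8*, where the highest 15.5 dpc value lay just under the lowest of 13.5 dpc. Its ratio was -5.57, -5.51 and -5.11 at 13.5 dpc and -7.23, -5.57 and -6.45 at 15.5 dpc, and the difference was -0.61 without 15.5 dpc replicate 1. Separation was wide for *G6pc2*, from -4.88 to -4.80 at 13.5 dpc against -6.37 to -5.95 at 15.5 dpc.

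Relative to the sum of *Chga* and *Chgb*, the chromogranin genes of endocrine cells in general, the genes moved the other way. The log2 ratio was higher at 15.5 dpc by 1.76 for *Slc30a8*, 1.51 for *G6pc2*, 0.76 for *Pcsk1*, 0.70 for *Pcsk2* and 0.57 for *Abcc8*, each without overlap and with an exact permutation p of 0.1. Of all tested genes, 38.3% were higher without overlap on this ratio, with a median difference of 0.19. It differed by 0.39 for *Kcnj11* and 0.34 for *Slc2a2*, with overlapping stages (p = 0.4, exact permutation test). Without 15.5 dpc replicate 2 these differences were 0.12 and 0.13, and when 15.5 dpc replicate 1 was omitted they were 0.70 and 0.56. The reference itself was mixed, since *Chgb* fell by 0.63 ± 0.0833 on the log2 scale (SE, adjusted p = 0.0029, edgeR) and *Chga* did not pass (0.45 ± 0.16, adjusted p = 0.0841).

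**Figure D4:**
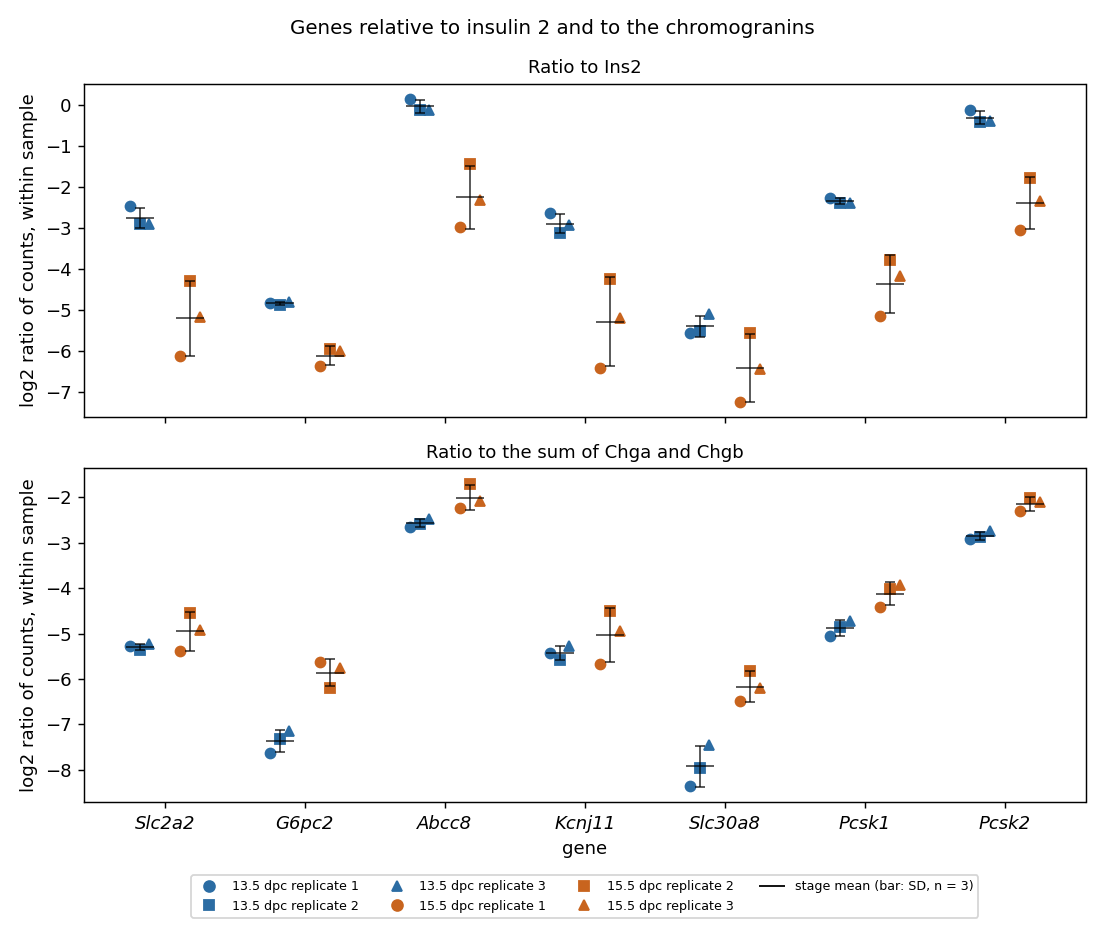
Log2 ratio of each gene's counts to *Ins2* (upper panel) and to the sum of *Chga* and *Chgb* (lower panel) in each sample, with black bars for the stage mean and SD (n = 3). All 7 genes lie lower at 15.5 dpc relative to *Ins2*, as do 98.6% of all tested genes, and 5 of them lie higher, without overlap, relative to the chromogranins, against 38.3% of all tested genes.

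Markers of the cells that use these genes were summed beside them. The beta cell list had 4 of 6 genes higher and 1 lower, and summed to 6534 to 7661 normalised counts at 13.5 dpc and 14700 to 29090 at 15.5 dpc. The endocrine list had 1 of 10 higher and 2 lower, with sums of 11620 to 12550 and 10530 to 12150. The list of other islet cells had 3 of 8 higher and 2 lower, with sums of 16720 to 18650 and 13330 to 18160. For neurons and glia, which also express convertases and KATP subunits, 2 of 10 were higher and 4 lower, with sums of 5347 to 5647 and 4287 to 5438. None of the genes of these 4 lists was at 0 in all samples, and their part in the differences of the 8 genes was not tested.

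On the scale of CPM (with the TMM-scaled, effective library size) per kilobase of exon, the order of levels was led by *Abcc8* in all 6 samples, at 23.0 ± 1.79 and 29.4 ± 3.25 (SD, n = 3) at 13.5 and 15.5 dpc. *Kcnj11* (13.4 ± 1.25 and 15.5 ± 4.54) and *Pcsk2* (11.9 ± 0.948 and 16.7 ± 0.124) followed and changed places in 15.5 dpc replicates 1 and 3, so that they did not differ beyond their spread. *Pcsk1* (7.12 ± 0.968 and 10.4 ± 0.981) and *Slc2a2* (6.26 ± 0.162 and 6.91 ± 1.31) came next. They overlapped at 13.5 dpc, while *Pcsk1* was above *Slc2a2* in all 15.5 dpc samples and *G6pc2* was above *Slc2a2* in 15.5 dpc replicate 1. *G6pc2* (2.08 ± 0.388 and 5.20 ± 1.51) and *Slc30a8* (1.44 ± 0.473 and 4.11 ± 0.578) changed places in 15.5 dpc replicate 2, and *Ucn3* (0.193 ± 0.0379 and 0.257 ± 0.0491) was last in every sample. The exon models of *Slc2a2*, *Abcc8* and *Pcsk1* in the table hold 47.8%, 61.2% and 57.8% of the length in GENCODE M21, which bears on levels set between genes.

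The spread within a stage took different forms. At 13.5 dpc, 6 of the 7 tested genes were lowest in replicate 1, and *Slc30a8* deviated most, by -0.48 and 0.46 on the log2 scale from the stage mean in replicates 1 and 3. At 15.5 dpc, *Slc2a2* and *Kcnj11* were low in replicate 1 (-0.27 and -0.46) and high in replicate 2 (0.28 and 0.41). *G6pc2* ran the other way (0.40 and -0.47), as did *Ins1* and *Ins2*, which were highest in replicate 1 and lowest in replicate 2. Those are the libraries whose values ran with exon length in opposite directions, and the part of that trend in the spread was not tested. With the trend removed, *Abcc8* passed edgeR's test (log2 fold change 0.44, adjusted p = 0.0049), *Kcnj11* went to 0.0017 (adjusted p = 0.997) and *Pcsk2* to 0.72 (adjusted p = 0.00414). The removal used the deposited exon lengths, and that of *Kcnj11* is 31.9% of its GENCODE M21 length (61.2% for *Abcc8*, 100% for *Pcsk2*). The SE of *Kcnj11* was 0.301 with the trend removed, against 0.213 in the main fit.

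**Figure D5:**
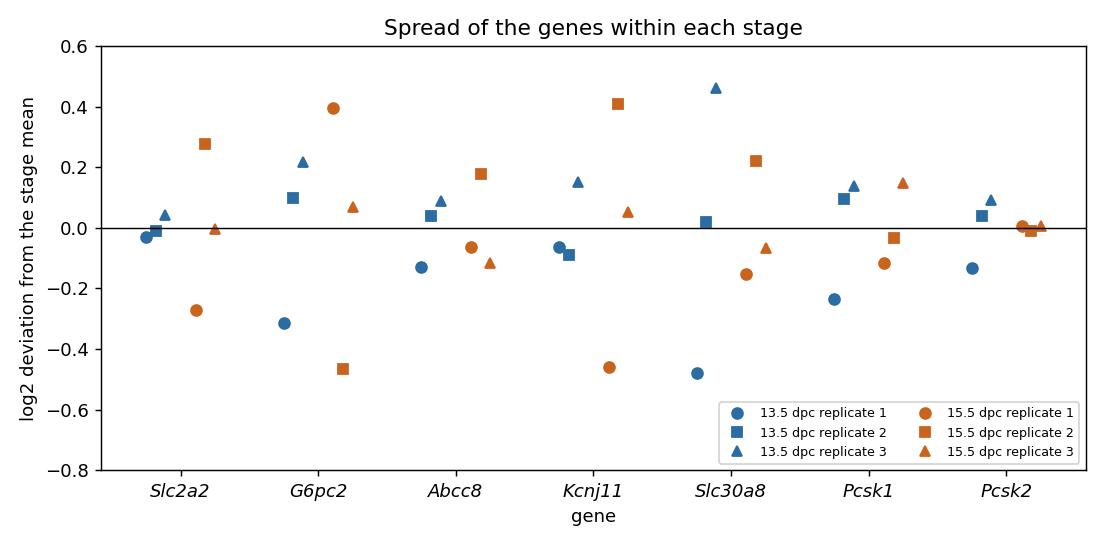
Log2 deviation of each sample from its stage mean for the 7 tested genes, with blue for 13.5 dpc and orange for 15.5 dpc and circles, squares and triangles for replicates 1, 2 and 3. *Slc2a2* and *Kcnj11* in 15.5 dpc replicates 1 and 2 lie opposite to *G6pc2*, and *Pcsk2* at 15.5 dpc lies at 0.

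The genes most like each of the 7 were sought by Pearson correlation of log2 CPM over the 6 samples, among 13853 genes, as a description of points that share stage, depth and library. They were *Arfgef2* and *Mttp* for *Slc2a2*, *Ppy* and *Igsf23* for *G6pc2*, *Arap2* and *Ccdc6* for *Abcc8*, and *C1galt1* and *Col15a1* for *Kcnj11*. For *Slc30a8* *Sh3glb1* was among them. They were *Fyn* and *Rsph3b* for *Pcsk1*, and *Cbx6* and *1810019D21Rik* for *Pcsk2*. All 14 coefficients were at least 0.99. With 6 points a high coefficient did not single out a gene, since 55 genes for *Abcc8* and up to 826 for *G6pc2* exceeded 0.95.

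Near-identical genes can share reads. No window of 50 bases of *Slc2a2*, *G6pc2*, *Abcc8*, *Kcnj11*, *Pcsk1* or *Ucn3* recurs in a transcript of another gene of GENCODE M21, and 0.364% of those of *Slc30a8* and 0.572% of those of *Pcsk2* do. *Ins2*, which served as reference, shares 7 windows with *Ins1*.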

How the data were processed

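RNA of 6 samples of wt mouse pancreas, 3 at 13.5 dpc and 3 at 15.5 dpc, was enriched for poly(A), made into strand-specific libraries and sequenced from a single end. Reads were placed on mm10 by the authors, who used GSNAP, kept unique alignments and counted them per Ensembl gene. The submitters' processing notes name featureCounts 1.4.6 and bcl2fastq 1.8.4. The deposited values are raw counts per gene, without normalisation, with the exon length of each gene. Whether counting used the strand is not given in the sources used here.

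Stages were compared with edgeR 4.0.16 in R 4.3.3 (quasi-likelihood test, filterByExpr, TMM factors, Benjamini-Hochberg adjustment over all 15578 genes tested, threshold 0.05, no covariate). A normalised count is a count divided by the effective library size of its sample and multiplied by the geometric mean of these sizes. Standard errors were taken from the F statistic, as the ratio of the log2 fold change to its root. Within-sample log2 ratios used a prior count of 0.5 and an exact two-sided permutation test over samples. Levels per kilobase use the deposited exon length. Symbols were found for 35449 of 37224 identifiers, which held 99.4% or more of each sample's counts. Gene coordinates are those of the deposited exon models on mm10. GENCODE M21 gave biotypes, transcript sequences and the later exon lengths. DESeq2 1.42.0 served as an alternative and figures were drawn with Python 3.11.15.

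The 8 genes and all lists were chosen with earlier results of these data known. Named are the 8 genes, up to 4 genes per related list past the threshold by smallest adjusted p, genes that a result turns on, and the 2 genes most correlated with each of the 8 at a mean log2 CPM of 1 or more. Genes such as *Slc2a1*, *Abcc9*, *Furin*, *Pcsk1n* and *Scg5*, and ratios to *Slc2a1*, *Abcc9*, *Kcnj8* and *Mafa*, were chosen after their values were seen. Some genes of the lists and of those named by rule are counted but not reported here. Alternatives were other normalisations, filters, DESeq2, the replicate number as a block, a lowess trend with exon length removed (span 0.5), genes above 1% of the counts taken out, the thresholds of the study (adjusted p of 0.1, over 100 normalised counts, fold below 0.6 or above 1.6) and each sample left out in turn. In data simulated for this comparison over 15413 genes, 72 of 100 genes changed by 1 on the log2 scale were called and 99 of 100 changed by 2, with 11 false calls. Each simulated gene was drawn independently, without a trend with exon length. Far fewer genes were changed than were called in the real data, so these rates may not hold there. Pairs of samples of a stage differed by more than sampling noise, with a chi-square per gene of 1.61 to 63.5.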

Additional observations from a re-analysis of the deposited data

How the results depend on the processing

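Of the fits of the 7 tested genes under the alternatives, 93 kept their direction and side of the threshold, 12 lost the call, 5 gained it and 2 changed direction. *Slc2a2* turned to -0.055 (adjusted p = 0.838, edgeR) with library size only, and *Kcnj11* to -0.070 (0.854) with the replicate block and the length trend removed. Library size only also left 2 of the 8 genes called, with *Pcsk1* at 0.33 (0.15) and *Pcsk2* at 0.27 (0.0933). *Abcc8* passed with DESeq2 (0.37, 0.0242), with the length trend removed (0.44, 0.0049) and with that and the block (0.44, 0.0136). For each of them the cause was not tested. *Slc30a8* passed in all.

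With each sample left out in turn, the number of the 8 genes called ranged from 1 to 5, and that of all genes from 1235 to 7620, against 3467 with all samples. Omitting 13.5 dpc replicate 1, 2 or 3 gave 1235, 1331 or 1402 genes. Omitting 15.5 dpc replicate 3 gave 1438, and omitting 15.5 dpc replicate 2 gave 7620. Log2 fold changes ranged from 0.0038 to 0.42 for *Kcnj11*, 0.0077 to 0.27 for *Slc2a2*, 1.08 to 1.52 for *G6pc2*, 0.27 to 0.41 for *Abcc8*, 0.43 to 0.61 for *Pcsk1* and 0.42 to 0.53 for *Pcsk2*. The thresholds of the study called 1555 genes of any biotype (9.98%), among them *G6pc2* and *Slc30a8*. Samples with the same replicate number did not deviate together (correlations 0.21, -0.21 and 0.034), so the numbers were not read as pairs. With the replicate block, 2676 genes and 4 of the 8 were called, with *Abcc8* at 0.35 (0.0948) and *Pcsk1* at 0.54 (0.0345). Stage differences of the log2 ratios were recomputed with a prior count of 2 and with each sample left out. The differences for ratios to *Ins2* and to the chromogranins kept their sign in these. The differences for *Abcc8* to *Kcnj11*, *Pcsk1* to *Pcsk2*, *Slc2a2* to *Slc2a1*, and *Slc30a8* to *Mafa*, which lay near 0, changed sign in some, by less than the spread. Of the related genes, 427 fits kept the call and 68 lost it. Depth limits *Ucn3* (3 to 5 counts per sample) and, less so, *Slc30a8* and *G6pc2*.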
